A study of Mus musculus with 14 samples.

Results

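The CpG sites described here lie at the starts and ends of genes. They were taken from the authors' deposited table of CpG sites that differed between tumours of offspring from 2 groups of mothers, by the gene location the table gives. A site was kept where that location was upstream of a gene, in its 5′ untranslated region (5′ UTR), in its 3′ UTR, downstream of it, or upstream of a gene and downstream of its neighbour. This gave 236 of 4327 listed sites. On the autosomes 87 sites were upstream, 27 in a 5′ UTR, 47 in a 3′ UTR and 43 downstream, and 1 lay between Tcf24 and Ppp1r42. The X chromosome held 31 of them: 18 upstream and 12 in a 5′ UTR on the 5′ side, and 1 downstream on the 3′ side. Sites lying within 1000 bases of each other on the same side formed 179 clusters, so the sites are not independent of one another.

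Reduced representation bisulfite sequencing (RRBS), which reads methylated and unmethylated cytosines in CpG-rich restriction fragments, was run on mammary tumours of FVB mice. All offspring were about 25 weeks old, carried the SV40 Tag transgene and ate control diet throughout. Neither the promoter driving the transgene nor the sex of the offspring is stated in the sources at hand. The 3 control libraries came from offspring of mothers on control diet, and the 4 maternal genistein libraries from offspring of mothers fed 250 mg/kg genistein (GE), a soy isoflavone that binds estrogen receptors, from 4 weeks of age until weaning (the group labelled LT-GE). Whether the libraries of a group stem from different litters is not labelled, and the p-values reflect no more than the variation among these 7 samples.

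Methylation of a CpG-rich promoter is generally associated with silencing of its gene, whereas the bodies and ends of transcribed genes are often highly methylated. In female mammals the CpG islands of most genes on the inactive X chromosome are methylated and those on the active X chromosome are not. A tumour sample mixes cell types and alleles, so a lower level can mean fewer methylated molecules per cell or fewer cells of a methylated type, and these cannot be told apart in bulk DNA.

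The methylation level is the percentage of a library's reads over a site that were methylated. Among the listed sites the largest q-value found was 0.00959 and the smallest absolute difference between pooled groups 25.0 percentage points. Every member therefore differed between the pooled groups before anything was tested here, and the tests below describe only whether the difference exceeded the spread between tumours. Coverage of the members ran from 10 to 281 reads. Reads over all members summed to between 5573 in maternal genistein library 4 and 11475 in control library 2, with a median coverage per site of 17.5 to 41.0 reads per library. A level of 0% on 10 reads has an exact binomial (Clopper-Pearson) 95% interval that reaches 30.8%, while 50 of 100 reads gives 39.8 to 60.2%. These intervals cover counting error only.

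Of the 172 sites placed against a RefSeq start of their gene (GRCm38.p6), 31 fell within the RefSeq promoter window, from 250 bases before to 50 bases after the start, and 30 of those could be shown at a CpG. The following 30-base stretches hold sites of genes named in the results below, except Stk26, whose site is only counted there. The CpG itself is in capitals and each sequence is read 5′ to 3′ on the strand of its gene. The first 4 are autosomal sites or clusters that were lower in maternal genistein tumours.

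Prdm12 (chr2:31640019-31640048, + strand): ctttgacccctcttCGttgcccacctctcc
Stox2 (chr8:47352424-47352453, - strand): caacactgcccaagCGactgggagggaaag
En1 (chr1:120602268-120602297, + strand): accctgagtgtcagCGcgagttctggctcg
Krt75 (chr15:101573858-101573887, - strand): ccttcacgaatctaCGaatctacctcggag

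Autosomal sites that were higher in maternal genistein tumours are shown by Ranbp3l and Olfr750.

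Ranbp3l (chr15:8967759-8967788, + strand): ggctttaatgacaaCGcagcagaagcaagg
Olfr750 (chr14:51071579-51071608, - strand): caaaatctcattctCGtattttcacccaac

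Of the X-linked sites, Aifm1, Tceanc and Stk26 were lower, and Rhox2d and Arhgef6 are among the 3 exceptions that were higher.

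Aifm1 (chrX:48513738-48513767, - strand): cattacctacacagCGgctgccccacccgc
Tceanc (chrX:166510688-166510717, - strand): cgttgccactgaaaCGcagcagccgggtta
Stk26 (chrX:50841230-50841259, + strand): ctgagagccccgagCGtctccaactctggc
Rhox2d (chrX:37493413-37493442, + strand): gtaacagtgaataaCGacttccacggcttt
Arhgef6 (chrX:57338928-57338957, - strand): cagtctgccccatgCGtgtctcatttccaa

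Counted from the start of the gene, with negative positions before it, the median position was -332 for upstream sites and 152 for 5′ UTR sites. Of 81 upstream sites with a start, 79 were within 1000 bases before it. CpG-rich promoter windows, with an observed over expected CpG ratio above 0.6 and a GC content above 50%, made up 58.3% of those of autosomal genes with a 5′ site (35 of 60), 62.5% of those of X-linked genes (10 of 16) and 57.4% of those of genes with a 3′ site (31 of 54). Among all 27025 RefSeq promoter windows the share was 33.9%, and among the 1046 on the X chromosome it was 23.7%. The motif CCGG, searched on both strands (it is its own reverse complement), was present in 85% of the windows of autosomal 5′ genes, 87.5% of those of X-linked genes and 75.9% of those of 3′ genes, against 52.6% of all windows. RRBS libraries are commonly cut at this motif, and its part in these shares was not tested.

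The locations differed in direction. At gene starts on the X chromosome and in autosomal 5′ UTRs most listed sites were less methylated in maternal genistein tumours, in autosomal 3′ UTRs most were more methylated, and upstream and downstream autosomal sites were divided. The 5′ side of the X chromosome had 27 of 30 sites lower, with 69.0% of all 158 listed X sites lower. Of the autosomal 5′ UTR sites 18 of 27 were lower, and of the upstream sites 45 of 87, where 46.1% of all 4167 listed autosomal sites were lower. Of the autosomal 3′ UTR sites 35 of 47 were higher, and of the downstream sites 19 of 43, where 53.9% of the listed autosomal sites were higher.

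Averaged over the 27 autosomal 5′ UTR sites, the mean level was 41.9, 41.3 and 56.2% in control libraries 1 to 3 and 33.9, 38.4, 24.9 and 37.3% in maternal genistein libraries 1 to 4. All 4 maternal genistein libraries were below all 3 controls, by a small margin for control library 2 against maternal genistein library 2, and the group means were 46.5% ± 8.43 (SD, n = 3) and 33.6% ± 6.10 (n = 4). The 47 autosomal 3′ UTR sites averaged 50.2, 41.5 and 61.8% in the controls and 78.6, 57.5, 70.3 and 75.4% in maternal genistein tumours. Here maternal genistein library 2 lay below control library 3 and the other 3 maternal genistein libraries lay above all controls, with group means of 51.2% ± 10.2 and 70.4% ± 9.29. Upstream sites averaged 42.3% ± 6.71 in control and 42.6% ± 4.02 in maternal genistein tumours, and downstream sites 52.5% ± 4.16 and 50.3% ± 3.03, differences smaller than the spread between libraries. The 3962 other listed autosomal sites averaged 53.4% ± 5.60 and 56.3% ± 5.96. Each listed site had been selected for a difference between the pooled groups. These means therefore largely restate the counts of lower and higher sites and are no separate support.

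**Figure D1:**
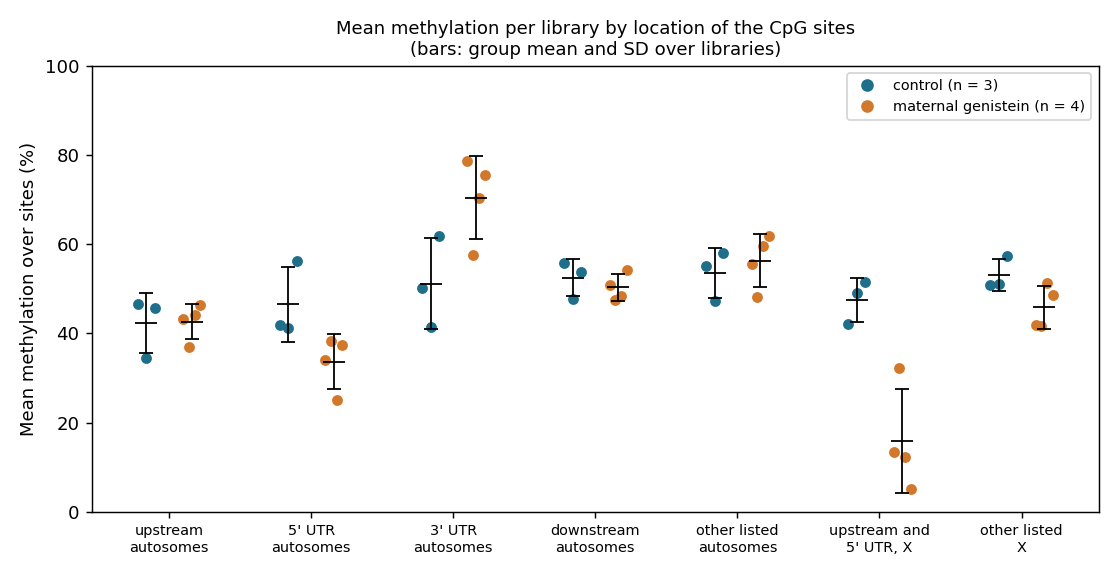
Mean methylation over the listed CpG sites of each location (vertical axis, percent), 1 point per library, for 3 control and 4 maternal genistein tumours, with bars for the group mean and SD over libraries. The groups do not overlap at autosomal 5′ UTR sites and at X-linked gene starts, maternal genistein tumours lie mostly higher at 3′ UTR sites, and the groups overlap at upstream and downstream sites.

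Both sides were also compared within each library. The 5′ mean less the 3′ mean on the autosomes was -7.43, -8.34 and -9.74 points in the controls and -24.4, -15.4, -20.3 and -21.1 points in maternal genistein tumours. Every maternal genistein library thus had a wider gap than every control, with group means of -8.50 ± 1.16 and -20.3 ± 3.69 points. The gap is built from the same selected sites, so it too largely restates the counts by direction. The wider gap was in the untranslated regions. The 5′ UTR mean less the 3′ UTR mean was -8.31, -0.168 and -5.60 points in the controls and -44.7, -19.1, -45.3 and -38.1 points in maternal genistein tumours, whereas upstream less downstream was -10.2 ± 2.72 and -7.63 ± 2.57 points. Relative coverage (log2, defined with the X-linked sites below) lay between -0.10 and 0.11 on both sides in all 7 libraries, and its part in the gap was not tested.

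Tested site by site, 85 of the 236 members (36.0%) had a quasi-binomial p under 0.05, 42 lower and 43 higher, where 31.6% of all 4327 listed sites did. The levels of the groups did not overlap at 80 members (33.9%), with 27.8% of all listed sites. No member passed after Benjamini-Hochberg adjustment over the 4327 sites, of which 2 (0.0462%) passed, both autosomal (0.048% of the listed autosomal sites). The lowest adjusted p of a member in the quasi-binomial test was 0.103. limma on log2 ratios gave 80 members (33.9%) with a p under 0.05, beside 30.4% of all listed sites, and also none after adjustment. A chi-square reference in place of F gave 107 members (45.3%) after adjustment, beside 40.0% of all listed sites.

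On the autosomal 5′ side 41 of 114 sites had a p under 0.05, 21 lower and 20 higher, with 31.7% of listed autosomal sites under 0.05 (14.2% lower, 17.5% higher). The 5′ UTR sites had 8 lower and 1 higher, and the upstream sites 13 lower and 19 higher. On the autosomal 3′ side 31 of 90 sites had a p under 0.05, 9 lower and 22 higher, and 15 of these higher sites lay in 3′ UTRs. The levels did not overlap at 38 sites of the 5′ side and 29 of the 3′ side, with 28.0% of listed autosomal sites.

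**Figure D2:**
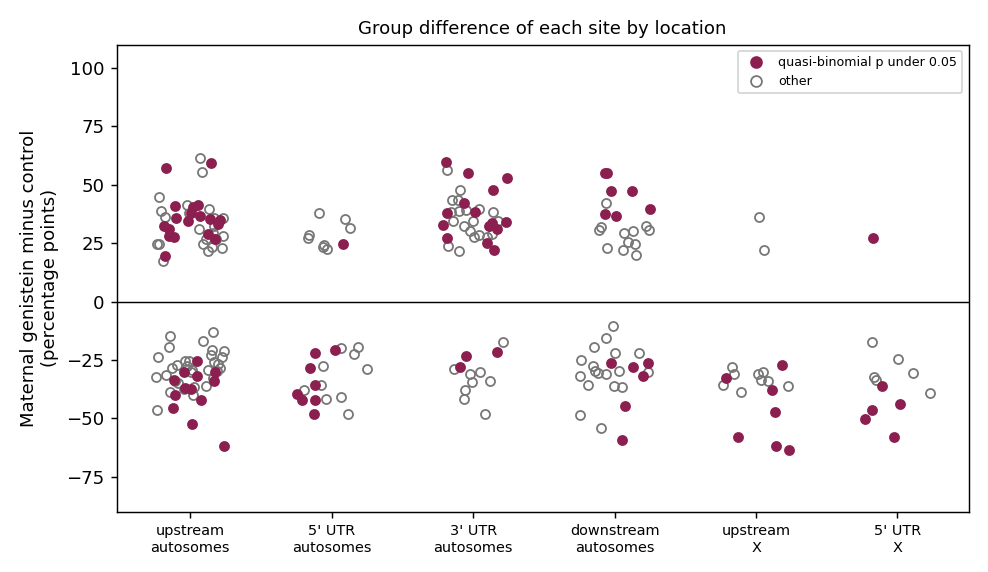
Difference in methylation of each member site (maternal genistein minus control, percentage points, unweighted means of libraries) by location and chromosome class; filled points have a quasi-binomial p under 0.05. The X-linked groups lie mostly below 0, 3′ UTR sites mostly above, and upstream and downstream sites on both sides.

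The X-linked gene starts had intermediate methylation in control tumours and mostly low methylation in maternal genistein tumours. The mean over the 30 sites was 42.1, 49.0 and 51.6% in the control libraries and 13.4, 32.3, 12.3 and 5.04% in the maternal genistein libraries. All 4 maternal genistein tumours were below the controls, and library 2 was the nearest to them. As every listed site already differed between the pooled groups, this mean largely follows the count of lower sites. The group means were 47.6% ± 4.91 (SD, n = 3) and 15.8% ± 11.6 (n = 4), a difference of -31.8 points, while the 127 other listed X sites averaged 53% ± 3.65 and 45.8% ± 4.87, a difference of -7.24 points. Sites between 30 and 70% numbered 20, 16 and 18 of 30 in the controls, and 2, 13, 1 and 1 in the maternal genistein tumours. Sites under 10% numbered 3, 3 and 1 in the controls, and 16, 8, 13 and 26 in the maternal genistein tumours. Median coverage of the 30 sites was 30, 30 and 33 reads in the controls. It was 31, 30, 21 and 13.5 reads in the maternal genistein libraries, so library 4, with the most sites under 10%, was the shallowest.

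The X-linked sites belonged to 17 genes. Of the 30 sites 13 had a quasi-binomial p under 0.05, 12 lower and 1 higher, where 29.1% of listed X sites did (22.2% lower, 6.96% higher). The levels did not overlap at 13 sites, again 12 lower and 1 higher, with 22.2% of listed X sites (16.5% lower, 5.7% higher). Leaving out any 1 library brought none of the 30 differences under 10 points, whereas it did so for 34 of the 127 other listed X sites and 38 of all 236 members. Relative coverage, the log2 coverage less each site's mean and each library's autosomal median, was -0.16, -0.44 and 0.09 in the controls at these 30 sites. It was 0.12, 0.65, -0.47 and 0.06 in the maternal genistein libraries, so the groups overlapped. The part of X copy number in the methylation difference was not tested.

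Acsl4 encodes an acyl-CoA synthetase that activates polyunsaturated fatty acids. Its 5′ UTR site at chrX:142390385 was at 55.9, 60.6 and 52.3% in the controls and 7.55, 14.3, 17.6 and 0% in maternal genistein tumours, on 13 to 106 reads. The groups were far apart, at 56.3% ± 4.18 and 9.87% ± 7.81, with a quasi-binomial p of 0.000258 and an exact permutation p of 0.0286, the smallest that 3 against 4 libraries allow. The adjusted p of 0.103 from the quasi-binomial test did not pass. Its neighbouring sites at 142390383 and 142390391 had nearly the same coverage in every library, and the 3 sites averaged 58.7% ± 1.09 in control and 14.4% ± 11.8 in maternal genistein tumours.

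Phf6, a PHD finger protein of chromatin that is mutated in T cell leukaemia, had 4 upstream sites over 43 bases, on 10 to 33 reads. The site at chrX:52911951 was at 35.7, 100 and 54.5% in the controls and at 0% in all 4 maternal genistein libraries. Controls thus varied widely (63.4% ± 33.0) and still did not overlap, with a quasi-binomial p of 0.003 and an exact permutation p of 0.0286. Over the 4 sites the controls averaged 56.6% ± 22.0 and the maternal genistein libraries 2.68% ± 5.36.

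Tmem47, a transmembrane protein of cell junctions, had an upstream site at chrX:81070335 at 23.9, 51.1 and 70.3% in the controls and 0, 0, 4.23 and 0% in maternal genistein tumours, on 13 to 75 reads. Its groups did not overlap, with a quasi-binomial p of 0.00424 and an exact permutation p of 0.0286. The upstream site of Magix, a PDZ domain protein, at chrX:7681173 was at 45.8, 15.8 and 44.8% against 0, 4.08, 19.2 and 10%. Here control library 2 lay below maternal genistein library 3, the quasi-binomial p was 0.0179 and the exact permutation p 0.0571. The call of Magix was lost with limma (p of 0.0825), without control library 3 (quasi-binomial p of 0.1) and without maternal genistein library 2 (0.0573). The 5′ UTR site of Nbdy, which encodes a microprotein of P-bodies, at chrX:153723849 was at 100, 50 and 35.7% against 0, 16.0, 0 and 0% on 11 to 25 reads, with no overlap (quasi-binomial p of 0.023, exact permutation p of 0.0286). The quasi-binomial p of Nbdy was 0.0535 without control library 2, 0.0515 without maternal genistein library 1 and 0.0502 without maternal genistein library 3.

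Aifm1, which encodes the mitochondrial apoptosis-inducing factor, had 3 sites over 316 bases, in the 5′ UTR and upstream, that averaged 37.3% ± 19 in control and 13.4% ± 9.91 in maternal genistein tumours. None had a p under 0.05. Tceanc, a gene with a transcription elongation factor domain, had 4 upstream sites over 47 bases averaging 29.7, 50 and 73.4% in the controls and 23.4, 41.7, 8.57 and 3.82% in maternal genistein tumours. These groups overlapped through control library 1 and maternal genistein library 2, and none of the 4 sites had a p under 0.05.

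The 3 exceptions that were higher belonged to Rhox2d, Arhgef6 and Hmgn5. Rhox2d, a reproductive homeobox gene, had a 5′ UTR site at 59.5, 58.3 and 38.8% in the controls and 83.3, 95.5, 81.2 and 57.1% in maternal genistein tumours. Only maternal genistein library 4 fell among the controls (quasi-binomial p of 0.043). The upstream site of Arhgef6, a guanine nucleotide exchange factor, was at 0, 7.55 and 0% against 18.2, 100, 18.9 and 17.2%, without overlap and with a quasi-binomial p of 0.149. Hmgn5, a nucleosome-binding protein, had 1 upstream site higher and another lower.

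The single 3′ site on the X chromosome, downstream of 5730412P04Rik, was at 0, 79.3 and 13.3% against 0, 19, 8.70 and 23.1%. Its difference of -18.2 points rested on control library 2 and became 6.04 points without it.

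**Figure D3:**
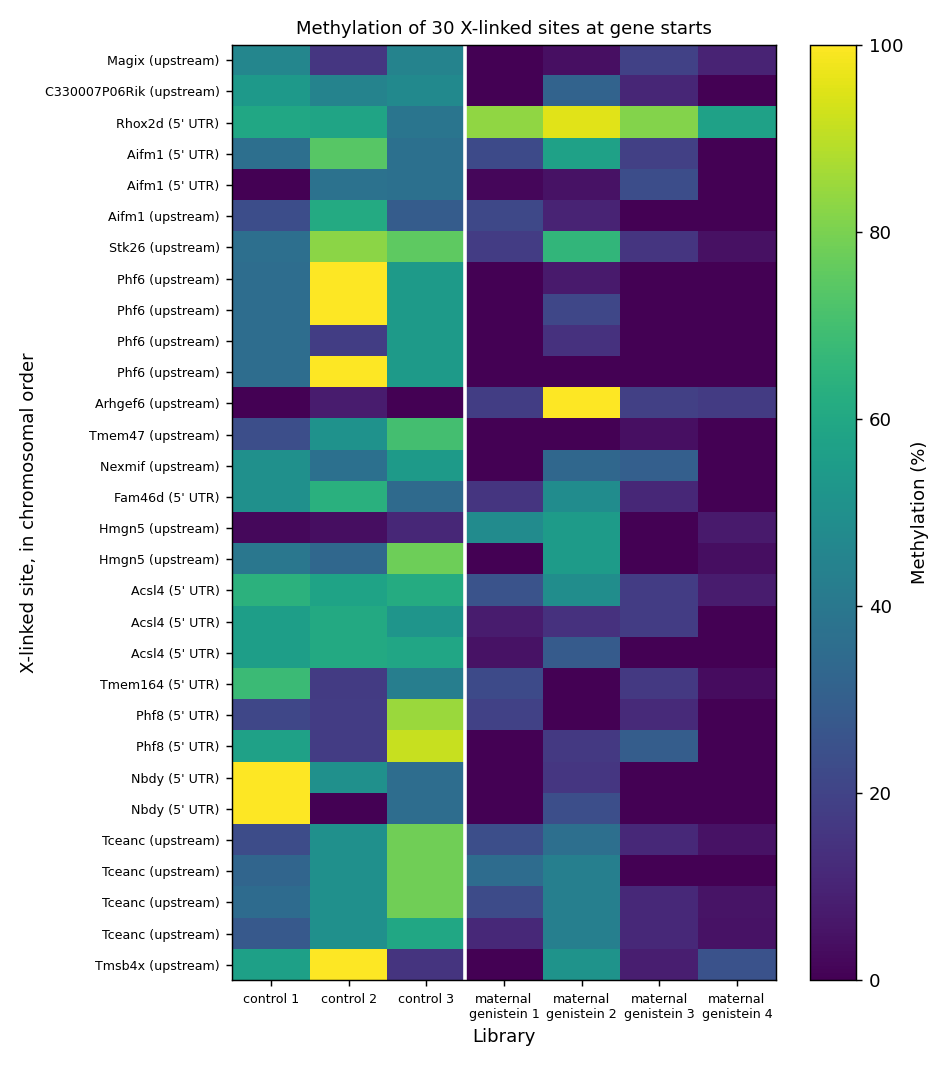
Methylation (colour, percent) of the 30 X-linked sites at gene starts in chromosomal order (rows) in each of the 7 libraries (columns; the white line separates 3 control from 4 maternal genistein tumours). Maternal genistein libraries 1, 3 and 4 are dark over most rows, and library 2 lies between them and the controls.

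Among the 8 autosomal 5′ sites with the lowest p, 5 were lower and 3 were higher, and the site with the lowest p among them, upstream of Ehmt1, was higher. Ehmt1 encodes a histone H3 lysine 9 methyltransferase. Its upstream site at chr2:24920448 was at 36.0, 36.1 and 36.3% in the controls and 84.2, 60.7, 66.7 and 84.2% in maternal genistein tumours, on 38 to 147 reads. The controls were nearly identical and the maternal genistein tumours all higher, by 37.8 points, with a quasi-binomial p of 0.00219, an exact permutation p of 0.0286 and an adjusted quasi-binomial p of 0.105. With limma on log2 ratios its p was 0.106, which ends the call.

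Rspo2 encodes R-spondin 2, a secreted protein that enhances Wnt signalling. Its 5′ UTR site at chr15:43170809 was at 46.5, 65 and 53.1% against 30.8, 20, 9.68 and 15.4%, on 13 to 60 reads. The groups did not overlap, with a difference of -35.9 points, a quasi-binomial p of 0.00391 and an exact permutation p of 0.0286. With limma on log2 ratios its p was 0.114. Another site of the same 5′ UTR, at 43170800, differed by -39.6 points.

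Prdm12, a zinc finger regulator of sensory neuron development, had a site 3 bases before its start that was at 35.2, 51.1 and 65.3% in the controls and 19.3, 22.7, 11.0 and 0% in maternal genistein tumours, on 32 to 265 reads. The groups did not overlap (quasi-binomial p of 0.0127, exact permutation p of 0.0286). The site 91 bases before the start of Stox2, a winged-helix protein, was at 60.6, 67.7 and 64.4% against 16.2, 8.77, 30.3 and 53.1%. Library 4 of the maternal genistein group came close to the controls without reaching them (quasi-binomial p of 0.00698, exact permutation p of 0.0571, limma p of 0.103).

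Sorcs3, a neuronal sorting receptor, had an upstream site at 22.6, 77.4 and 37.1% in the controls and at 0% in all 4 maternal genistein libraries (quasi-binomial p of 0.00827). The upstream site of Smpd5, a sphingomyelinase, was at 92.9, 85.2 and 72.4% against 0, 17.6, 47.5 and 21.1% (quasi-binomial p of 0.0126). At both sites the groups did not overlap and the exact permutation p was 0.0286. The site 175 bases before the start of Ranbp3l, a Ran-binding protein, was higher, at 42.9, 53.8 and 21.1% against 100, 100, 85.7 and 100%, on 13 to 19 reads (quasi-binomial p of 0.00469, exact permutation p of 0.0286). The upstream site of Dpp10, an auxiliary subunit of potassium channels, was at 0% in all controls and at 40.0, 0, 63.6 and 40.0% in maternal genistein tumours, so library 2 matched the controls (quasi-binomial p of 0.014, exact permutation p of 0.143). Without control library 2 the quasi-binomial p of Dpp10 was 0.0539.

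The 8 autosomal 5′ UTR sites that were lower with a p under 0.05 belonged to Rspo2 (both its sites), Fut2, Onecut1, Hand2, Cdh8, Dpp6 and Tal1; Onecut1, Hand2, Cdh8 and Dpp6 were named after their values were seen. Hand2, a transcription factor of heart and limb development, had a site at 21.1, 40.7 and 81.0% in the controls and 0, 6.67, 0 and 15.4% in maternal genistein tumours (quasi-binomial p of 0.0268). The site of Onecut1, a liver and pancreas transcription factor, was at 47.8, 10.9 and 9.68% against 0, 3.51, 0 and 0% (quasi-binomial p of 0.0216). Neither site overlapped between groups, and at Onecut1 control libraries 2 and 3 were close to the maternal genistein libraries.

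Groups of neighbouring sites varied more. En1, an engrailed homeobox gene, had 10 upstream sites over 83 bases, all lower, with a mean of 45.2, 12.6 and 63.4% in the controls and 6.02, 10.3, 5.03 and 10% in maternal genistein tumours. Control library 2 lay near the maternal genistein libraries, the group means were 40.4% ± 25.7 and 7.84% ± 2.70, and none of the 10 sites had a p under 0.05 (lowest quasi-binomial p 0.0692). Many of these sites had identical coverage within a library, and at several CpGs both strands are listed as separate sites. By distance, 15 of 20 autosomal upstream sites within 250 bases of the start were lower, 10 of them those of En1, against 9 of 17 from there to 500 bases and 10 of 29 from 500 to 1000 bases.

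Krt75, a keratin of the hair follicle, had 3 sites in its 5′ UTR that averaged 91.7, 94.7 and 94.1% in the controls and 78.9, 33.6, 77.3 and 23.3% in maternal genistein tumours. All maternal genistein libraries were lower, by very different amounts, and none of the 3 sites had a p under 0.05. Tal1, a regulator of blood cell development, averaged 51.6% ± 14 and 25.3% ± 22.8 over 3 sites in its 5′ UTR. Rftn2, a lipid raft protein, had 4 sites in its 5′ UTR at 30.3% ± 8.07 in control and at 43.4, 100, 6.82 and 95% in maternal genistein tumours, on both sides of the controls.

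Olfr750, an olfactory receptor gene, had 3 upstream sites that averaged 53.8, 40.9 and 39.2% in the controls and 77.8, 71.0, 81.3 and 92.9% in maternal genistein tumours, without overlap, and 2 of the 3 had a p under 0.05. Tmprss2, a membrane serine protease, had 3 upstream sites that averaged 38.1, 7.41 and 45.7% against 66.6, 56.0, 72.6 and 70.4%, on 59 to 189 reads. Its groups did not overlap either, and 2 of its 3 sites had a p under 0.05. The site between Tcf24 and Ppp1r42 was at 4.0, 0 and 67.3% in the controls and 0% in all maternal genistein libraries, so that its difference rested on control library 3.

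At the ends of autosomal genes, the 8 sites with the lowest p were all higher in maternal genistein tumours. Rasl10b encodes a small GTPase of the Ras superfamily. Its 3′ UTR site at chr11:83420122 was at 2.70, 0 and 0% in the controls and 87.5, 55.1, 60.3 and 20% in maternal genistein tumours, on 15 to 58 reads. The controls were almost unmethylated and the maternal genistein tumours ranged widely above them, with a quasi-binomial p of 0.00245 and an exact permutation p of 0.0571.

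Bcl7a, a subunit of the SWI/SNF chromatin remodelling complex, had a 3′ UTR site at 69.6, 38.5 and 78.1% against 100% in all 4 maternal genistein libraries (quasi-binomial p of 0.00361). The 3′ UTR site of Aida, an axin interactor, was at 35.9, 63.7 and 45.8% against 100, 80.2, 90.6 and 91.2%, on 34 to 201 reads (quasi-binomial p of 0.0076). Both had no overlap and an exact permutation p of 0.0286. The 3′ UTR site of Fbxw4, an F-box protein, was at 65.2, 68.8 and 100% against 100% in all maternal genistein libraries, so control library 3 equalled them (quasi-binomial p of 0.00556, exact permutation p of 0.143, limma p of 0.0835).

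Pim1 encodes a serine/threonine kinase and proto-oncogene. The site downstream of it at chr17:29495673 was deeply covered, with 108 to 174 reads, and was at 26.7, 5.88 and 44.5% in the controls and 94.3, 73.6, 73.4 and 81.5% in maternal genistein tumours. The groups were separate by a wide margin, with a difference of 55.0 points, a quasi-binomial p of 0.00795 and an exact permutation p of 0.0286. The site downstream of Spem2, a spermatid maturation gene, on 39 to 214 reads, was at 45.2, 34.1 and 52.5% against 71.9, 72.3, 77.6 and 100%, also without overlap (quasi-binomial p of 0.00605, exact permutation p of 0.0286, limma p of 0.0673).

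Other 3′ UTR sites that were higher with a p under 0.05 included those of Ednrb, Peg12 and Bcl11b, named here after their values were seen. Ednrb, the endothelin receptor type B, had a site at 15.8, 26.9 and 64.7% in the controls and 100, 100, 82.1 and 100% in maternal genistein tumours (quasi-binomial p of 0.0153). A site of Peg12, a paternally expressed gene, was at 52.5, 41.9 and 67.2% against 100, 90.2, 79.4 and 81.8% (quasi-binomial p of 0.012), and the site of Bcl11b, a zinc finger transcription factor, at 42.3, 43.5 and 60% against 100, 73.7, 73.9 and 76.9% (quasi-binomial p of 0.0103). The groups did not overlap at any of these 3 sites. A second 3′ UTR site of Peg12, at chr7:62463243, differed by 23.9 points.

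The site downstream of the microRNA gene Mir7230 was at 14.6, 7.50 and 10.7% against 58.3, 78.9, 67.9 and 28.0% (quasi-binomial p of 0.00698, exact permutation p of 0.0571). The site downstream of 3930402G23Rik was at 43.9, 55.0 and 72.9% against 88.4, 96.2, 95.1 and 100% (quasi-binomial p of 0.00724, exact permutation p of 0.0286). Neither overlapped between groups. Epop, a partner of the Polycomb repressive complex, averaged 42.4% ± 32.3 in control and 70.8% ± 16.1 in maternal genistein tumours over its 3 sites, and Cbln1, a secreted organiser of synapses, averaged 33.0% ± 17.9 and 13.0% ± 17.6 over 3. These overlapped, and none of the 6 sites had a p under 0.05.

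**Figure D4:**
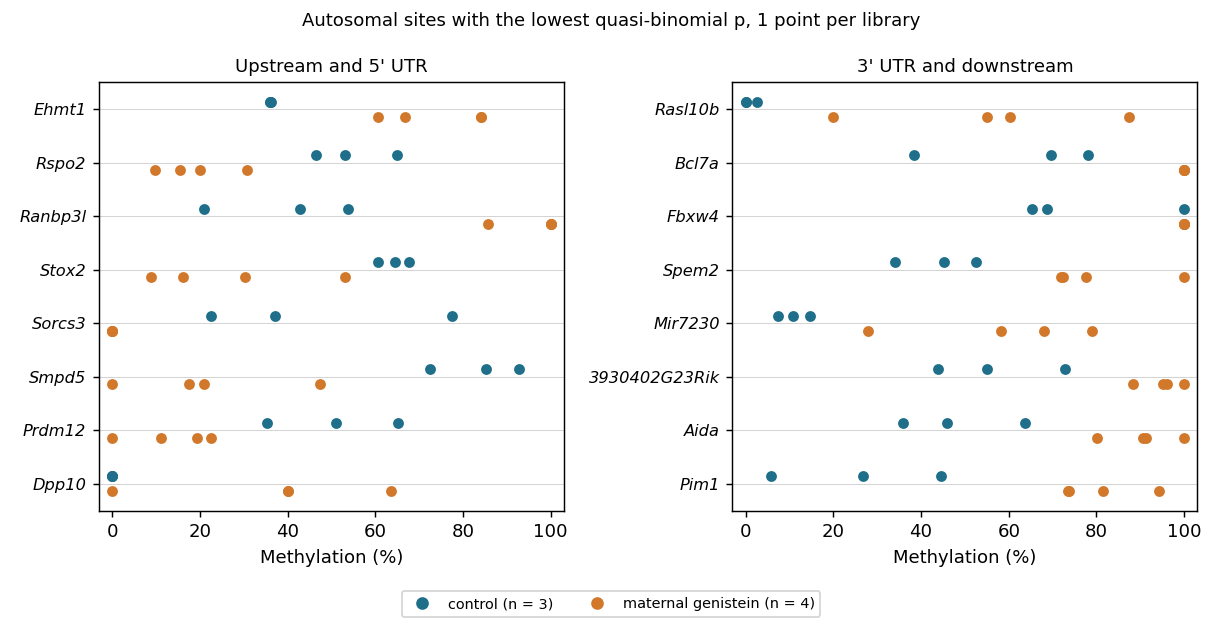
Methylation (horizontal axis, percent) in each library of the 8 autosomal sites with the lowest quasi-binomial p on the 5′ side (left) and on the 3′ side (right), for 3 control and 4 maternal genistein tumours; coinciding points overlie each other. The 5′ sites lie in both directions and the 3′ sites all have higher means in maternal genistein tumours, with overlap at Dpp10 and Fbxw4.

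The fixed lists of genes relevant to mammary tumours held few members. Of 62 homeobox and developmental transcription factor genes on the list, 3 had a member site (En1, Irx3 and Otx1). Of their 12 sites 11 were lower, 10 of these in En1. The list is not complete, so these counts do not describe such genes as a whole. Among those it does not hold, Hand2, Onecut1, Tal1, Pou3f3, Hoxc9, Isl2, Foxl2, Sox21, Helt and Prdm12 had lower sites. Higher sites were found at Bcl11b, Rhox2d, Twist2, Gsx1, Sox6 and Zfhx3. These names are examples, and the direction over all such genes was not counted. The site downstream of Irx3 was at 70.8, 36.7 and 0% against 0% in all maternal genistein libraries, and the site downstream of Otx1 at 49.9% ± 33.7 and 75.4% ± 7.88, neither with a p under 0.05. Of 51 imprinted genes on the list, which does not hold Peg12, 1 had a member site, upstream of Mkrn3, at 41.0% ± 23.1 and 15.4% ± 13.7 (quasi-binomial p of 0.124). Of 36 tumour suppressor genes and oncogenes on the list 1 had a member site, upstream of Nf2, which encodes the tumour suppressor merlin.

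That Nf2 site at chr11:4850186 was at 17.1, 0 and 8.25% in the controls and 56.2, 22.2, 52.1 and 33.3% in maternal genistein tumours, on 39 to 123 reads. The groups did not overlap (quasi-binomial p of 0.0145, exact permutation p of 0.0571). None of 14 listed estrogen receptor and estrogen-responsive genes, 23 listed genes of DNA methylation and chromatin enzymes and 14 listed genes of X inactivation and escape had a member site. The list of 23 is not complete and does not hold Ehmt1 or Phf8, a histone demethylase gene, which both had member sites.

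RNA libraries, 3 from control and 4 from maternal genistein tumours, are not tied by the labels to the tumours used for RRBS. Of the 181 genes next to a member site, 22 were in the authors' deposited table of called genes. That table holds only called genes, 1324 in all. No share over all tested genes can be set beside the 22, so the count does not set the members apart. Positive fold changes were taken to mean more RNA in the maternal genistein group. The header does not name the numerator, and the reading rests on the correlation over 20 chromosomes (Pearson's r = 0.903, a description) of the share of positive genes with relative RRBS coverage in maternal genistein libraries. Chromosomes share the libraries. The opposite reading would turn every RNA direction given here.

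Of 10 autosomal genes with a 5′ site, 8 had higher and 2 lower RNA in the authors' deposited table, where 58.0% of 1324 genes were positive. The 5 whose sites had a negative difference all had higher RNA, although 2 of them, Cyp21a1 and Fut2, had a site with a p under 0.05 and Dab1, Actr3b and AI839979 did not. In the authors' deposited table Dab1, an adaptor of reelin signalling, had a log2 fold change of 5.99 ± 0.69 (SE). Its upstream site, 235 bases before the start, was at 17.4, 0 and 78.3% in the controls and 0, 9.09, 0 and 0% in maternal genistein tumours, so that the difference rested on control library 3 (quasi-binomial p of 0.0809).

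Cyp21a1, the steroid 21-hydroxylase, had a log2 fold change of 4.28 ± 1.12 in the authors' deposited table. Its upstream site was at 50.7, 80.2 and 98.9% against 6.19, 37.3, 40.0 and 13.8%, without overlap (quasi-binomial p of 0.0303, exact permutation p of 0.0286). The 5′ UTR site of Fut2, a fucosyltransferase, was at 50, 74.2 and 92.6% against 7.14, 29.4, 24.0 and 36.0%, also without overlap (quasi-binomial p of 0.0176, exact permutation p of 0.0286), and its log2 fold change was 2.56 ± 0.71 in the authors' deposited table. Actr3b, an actin-related protein, and AI839979 had log2 fold changes of 2.82 ± 0.38 and 2.84 ± 0.54 in the authors' deposited table. The upstream site of Actr3b was at 100, 100 and 88.6% against 16.1, 83.3, 70.6 and 69.6%, without overlap (quasi-binomial p of 0.0625, exact permutation p of 0.0571). The 2 upstream sites of AI839979 differed by -33.8 and -38.9 points with overlap between groups (quasi-binomial p of 0.105 and 0.118).

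The 5 autosomal genes with a positive difference at a 5′ site were divided in the authors' deposited table, with Apobec2, Gsr and Gja5 higher and Soga3 and Filip1 lower. Apobec2, a member of the cytidine deaminase family, had a log2 fold change of 5.31 ± 0.64 in the authors' deposited table, and its upstream site was at 55.8, 21.7 and 12.1% in the controls against 33.3, 75.8, 75.0 and 100%. Soga3 had a log2 fold change of -4.29 ± 1.01 in the authors' deposited table, and its 5′ UTR site was at 3.33% ± 5.77 against 31.9% ± 28.3. The groups overlapped at both sites.

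On the X chromosome Tmem47, whose upstream site was lower, had a log2 fold change of -2.09 ± 0.37 in the authors' deposited table, and Tceanc had 0.89 ± 0.26. A second adjusted value of the authors, headed FDR, was under 0.05 for 19 of the 22 genes. The share over all called genes was not computed. It was not for Tceanc (0.31), Armc8 (0.169) and Slc38a7 (0.309). Of the 10 autosomal genes with a 3′ site, the authors' deposited table had 6 higher and 4 lower. Pim1 had a log2 fold change of 1.07 ± 0.23, Jam2, a junctional adhesion molecule, -2.35 ± 0.62 and Cbln1 6.01 ± 0.97, all from the authors' deposited table. Of 20 markers of mammary and other cell types, 4 were in the authors' deposited table, with log2 fold changes of 4.49 for Krt5 and 4.73 for Trp63 (basal cells) and -1.18 for Krt18 and -2.68 for Elf5 (luminal cells). None of the 20 had a member site, and the part of cell composition in the methylation differences was not tested.

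**Figure D5:**
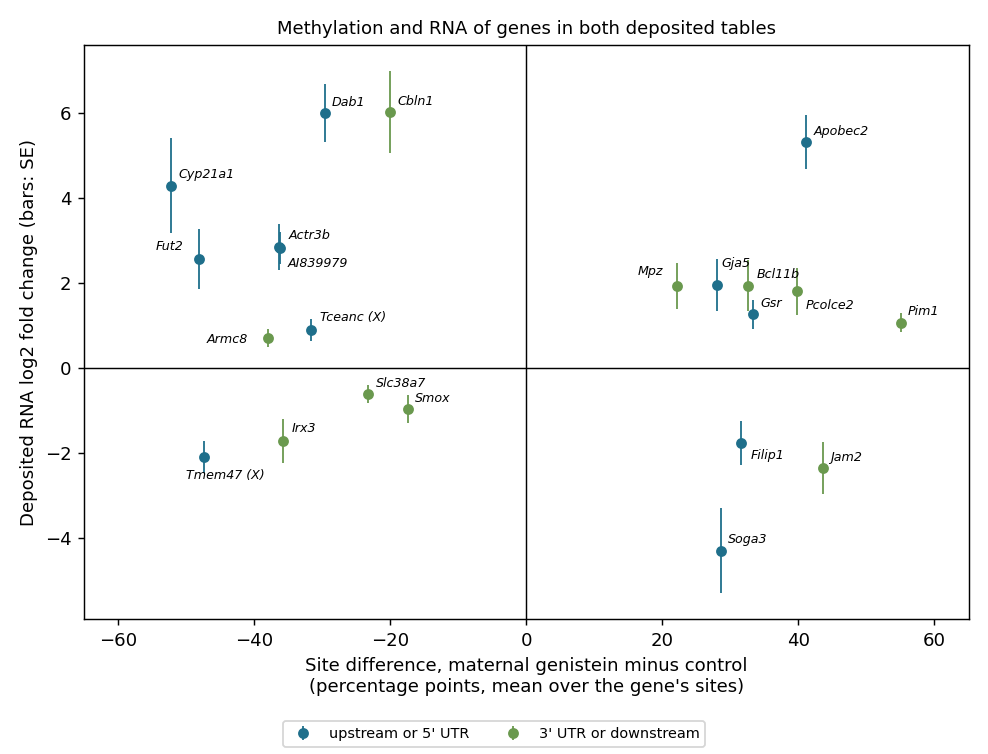
RNA log2 fold change with its SE from the authors' deposited table (vertical axis) against the mean difference in methylation of the gene's member sites (horizontal axis, percentage points, maternal genistein minus control) for 22 genes; blue, sites on the 5′ side, green, sites on the 3′ side. The 5 autosomal 5′ genes with a negative site difference lie in the upper left, and the other genes are spread over the plot.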

How the data were processed

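The authors deposited, per the file headers, methylated and covered read counts per RRBS library, a p-value, a q-value and a signed difference score in percent for each listed CpG, and, for called genes, a mean normalised count (a signal), a log2 fold change with its SE and adjusted p-values. Mean methylation per group of the authors' regions was deposited as a fraction, printed here as percent. The submitters' processing notes name Bismark, Trim Galore and FastQC, and also STAR, HTSeq, DESeq and R 3.6.1, with the builds GRCm38 and mm10, without saying which step each served. All libraries had at least 10 reads at every listed site.

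From the counts, a quasi-binomial model (dispersion floor of 1, F test) compared the groups at all 4327 sites, with Benjamini-Hochberg adjustment over them, beside an exact permutation of the library levels, two-sided (smallest p 0.0286). The listing by the same contrast makes both lenient. Means over sites carry no test. Python 3.11.15, numpy 2.4.6, scipy 1.17.1, pandas 2.3.3, R 4.3.3 and limma 3.58.1 (offset 0.5 reads) were used. The quasi-binomial tests, but not limma, were run on simulated reads. That simulation had the same spread setting at all sites and no prior listing by the contrast, so it does not cover the selection of the listed sites. The named sites were the 8 (X chromosome: 5) with the lowest p on each side, 1 per gene, genes with 3 or more sites or sites on both sides, the site between genes, members of fixed gene lists, and the called RNA genes (values for the 10 with the lowest adjusted p, and for Fut2, added after its values were seen). Members and lists were chosen with earlier results of these data known. Alternatives were a coverage of 20 reads, limma, a chi-square reference, the replicate number as a block, leaving out each library, pooled reads, 1 value per cluster, and single locations; 5′ UTR and 3′ UTR sites apart were added after seeing the data. Gene starts, promoter windows and sequences are from RefSeq (GRCm38.p6), where all 181 genes matched by symbol. A start was found for only 172 of the 236 sites. Promoter windows were found for 60 of 86 autosomal genes with a 5′ site, 16 of 17 X-linked genes and 54 of 74 genes with a 3′ site.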

Additional observations from a re-analysis of the deposited data

Results flagged for a closer look

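Groups of 4 maternal genistein libraries were examined at named sites and for the mean levels of locations, 29 in all. Of these, 3 had a library whose level stood apart from the rest by Dixon's criterion, and chance flags about 1 group in 20. At the upstream site of Ranbp3l, maternal genistein library 3 was at 85.7% while the other 3 were at 100%. At the upstream site of Tmem47, library 3 was at 4.23% while the others were at 0%. At the 5′ UTR site of Nbdy, library 2 was at 16.0% while the others were at 0%. In each case the other 3 libraries had the same level at the end of the scale, so that any deviation meets the criterion.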

How the results depend on the processing

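Sites with a quasi-binomial p under 0.05 numbered 54 of 144 on the 5′ side and 31 of 91 on the 3′ side, X chromosome included. With sites required to have 20 reads or more throughout, which leaves 33 and 24 sites, they numbered 17 (7 lower and 10 higher, against 33 and 21 with all sites) and 6, and with a chi-square reference 89 and 59. Of all listed sites, 31.6% had such a p in the main test, 35.5% at 20 reads and 55.8% with the chi-square reference. Leaving out each library gave 33 to 50 on the 5′ side and 21 to 33 on the 3′ side, with 22.8 to 29.4% of all listed sites. The 5′ count was 33 without control library 3 and 34 without maternal genistein library 3. Same-numbered libraries did not deviate together over the listed sites (correlations of 0.02, 0.01 and -0.03). Whether they share more than a number is not labelled. With the replicate number as a block 63 members had a p under 0.05 in place of 85, with 999 of all 4327 listed sites in place of 1369. The block left 40 on the 5′ side (23 lower, 17 higher) and 22 on the 3′ side, where 12 were lower and 10 higher against 9 and 22 without it; none passed adjustment. Under the block 8 named sites no longer passed: Rspo2, Smpd5, Prdm12, Magix, Nbdy, Fbxw4, Aida and Pim1. The mean difference of autosomal 5′ sites, -2.76 points, reversed to 1.14 at 20 reads and to 0.36 for upstream sites alone, was -12.8 for 5′ UTR sites alone (66.7% of sites lower), and ranged from -6.33 to -0.279 with each library left out. That of 3′ sites, 9.03 points, was 19.3 for 3′ UTR sites (25.5% lower) and reversed to -2.17 for downstream sites (55.8% lower); it was 5.38 without control library 2 and reached 12.1 with each library left out. The added 5′ UTR difference reversed to 6.26 points at 20 reads, where 3 sites are left; leaving out each library gave -15.4 to -7.95, and for 3′ UTR sites 14.4 to 24.6. The change of the gap between the sides, -11.8 points, was -8.54 with 1 value per cluster, -8.66 with upstream and -21.8 with 5′ UTR sites as the 5′ side, -22 with 3′ UTR and -0.586 with downstream sites as the 3′ side, and -13.4 to -10.4 with each library left out. The X-linked difference ranged from -37.3 to -28.2 points with each library left out, and 100% of its 4 sites with 20 reads were lower. Of the values of single named sites under these settings, 205 kept their direction and side of the threshold, 20 no longer passed and 1 reversed. The 205 include values that could not lose a call. These are 6 at 20 reads, where the test of a site is unchanged, and 22 with the chi-square reference, which only lowers a p. Values of 5730412P04Rik under the other settings had no call to lose either, as its main quasi-binomial p was 0.261. Under the block the direction was taken from the unadjusted levels, so it could not reverse. The reversed value was that of 5730412P04Rik, whose difference changed sign without control library 2. Its quasi-binomial p ranged from 0.108 to 0.683 with each library left out (exact permutation p 0.571). The causes of these changes were not tested, beyond fewer sites or libraries by construction. Depth limits the rest: most sites have fewer than 20 reads in some library.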

Other observations

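Other CpGs at gene starts and ends are covered by the authors' deposited table of regions. In it 17 of 139 regions carry such a location at their start, their end or both. None of the 17 holds a listed site, so their spread between tumours was not examined. In the authors' deposited table all 5 X-linked regions at gene starts were lower after maternal genistein, beside 18 of all 19 X-linked regions and 66.2% of all 139 regions. The X-linked region in the 3′ UTR of Sox3, a SOX family transcription factor gene, was lower too, at 48.3% and 2.23% in the authors' deposited table. Upstream of Jade3, a scaffold protein of histone acetyltransferase complexes, the authors' deposited table gives 77.5% for control and 5.72% for maternal genistein. For the 5′ UTR of Phka2, a phosphorylase kinase subunit, the authors' deposited table gives 55.5% and 5.95%, and for that of Slc6a8, the creatine transporter, 47.8% and 16.9%. The other regions belong to Slc25a14, a mitochondrial carrier, and Hccs, the holocytochrome c synthase.

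On the autosomes the authors' deposited table has 6 of 8 regions on the 5′ side lower and 3 of 3 at 3′ UTRs higher, beside 61.7% of 120 autosomal regions lower. The regions of Osr2, Kremen2, Prr16, Ubxn10, Speg and Fam171a2 start and end in different locations. They lie only partly in the UTR they are counted under. The 5′ UTR region of Zrsr1, an imprinted gene, went from 62.9% in control to 26.9% in the maternal genistein group of the authors' deposited table. Both 5′ regions that were higher lie partly in 5′ UTRs. For Osr2, a developmental zinc finger gene, the authors' deposited table gives 7.73% and 62.5%. It gives 5.03% and 52.9% for Kremen2, a receptor of the Wnt pathway. For the region partly in the 3′ UTR of Speg, a muscle protein kinase gene, the authors' deposited table gives 43.5% and 92.1%. These regions and the listed sites come from the same 7 libraries.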
